A study of Homo sapiens with 2 samples.

Results

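The ribosomal S6 kinase family comprises the RSK, MSK and S6K kinases and a pair of more distant relatives, 10 genes in all. These were the genes named RPS6KA1 to RPS6KA6, RPS6KB1, RPS6KB2, RPS6KC1 and RPS6KL1. They were found by the gene symbol that the platform annotation gives each probe set, a group of short array probes read together as 1 value. Each of the 10 genes had 1 probe set to itself, out of 18417 genes with a probe set of their own and 33297 probe sets on the array. The family was selected on the difference of RPS6KA5 between the 2 cultures, which was known beforehand, so that difference is a description here and not a test.

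RNA was measured in K562, an established human chronic myeloid leukaemia line carrying the BCR-ABL fusion kinase. Both cultures carried a hairpin construct that doxycycline switches on to silence BMI1, a Polycomb repressive complex subunit that helps keep genes silent. One culture (P4-K562+shBMI1+doxycycline) was kept with doxycycline for 96 h, and the other (P3-K562+shBMI1) received none. Each group was 1 sample on 1 array, so doxycycline itself, hairpin induction and any other difference between the cultures cannot be told apart, and no difference below has a replicate check or a p-value. Whether the line is 1 clone is not stated in the labels.

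The family sits at the end of growth factor, stress and nutrient signalling. RSK kinases are switched on by ERK together with PDPK1 and act on targets in the cytoplasm and nucleus, whereas MSK kinases are mainly nuclear, answer to both ERK and p38, and phosphorylate CREB and histone H3. One of the histone serines they modify lies next to the lysine that Polycomb complexes methylate. S6K kinases are switched on by mTORC1 and PDPK1 and phosphorylate ribosomal protein S6 and translation factors.

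Values are log2 RMA values, in which a step of 1 is a doubling of signal, and differences are given with doxycycline minus without. A gene was compared with others when the higher of its 2 values was at least 6, a floor under which dim probe sets fall. For scale, 305 of 341 olfactory receptor genes (89.4%) lay under it. The floor left 13471 genes, whose differences had a median of 0.00. For the targeted BMI1, the probe set it shares with the COMMD3-BMI1 read-through was at 10.84 without doxycycline and at 10.00 with it (-0.84). All 8 measured erythroid markers of K562 (GATA1, TAL1, KLF1, NFE2, EPOR, TFRC, HBE1 and HBZ) lay above the floor in both samples, from 7.30 to 13.3. All 8 were lower with doxycycline, where 48.8% of all genes were, with a median difference of -0.22. Their summed linear signal was 17123 with doxycycline and 20360 without. These 8 do not stand for all erythroid genes. ALAS2, an erythroid gene outside the list, was higher, at 8.65 without doxycycline and 8.87 with it. The part of the 8 markers in the family's differences was not tested. Of the markers of other cell types, CD3E, CD3G and CD2 (T cells), MS4A1 (B cells), FCGR3A and S100A12 (monocytes) and DCN and LUM (fibroblasts) were under the floor in both samples. The other 9 measured were above it in at least 1 sample. CD3D stood at 7.45 without doxycycline and 7.37 with it, CD5 at 6.41 and 6.33, CD79A at 6.39 and 6.14, and PAX5 at 6.60 and 6.43. CD14 stood at 6.29 and 6.30, CSF1R at 6.03 and 6.23, COL1A1 at 7.84 and 7.73, COL1A2 at 7.86 and 7.91, and COL3A1 at 6.62 and 6.63. These markers were therefore not all dim, and differed by at most 0.25 between the samples. The summed linear signal with and without doxycycline was 404 and 426 for the 5 T cell markers, 177 and 201 for the 3 of B cells, 195 and 185 for the 4 of monocytes, and 580 and 586 for the 5 of fibroblasts.

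Of the family, RPS6KA5 (MSK1) differed by far the most between the cultures and the other 9 members stayed within 1.2-fold. Of the 9 members past the floor, 1 was at least 1.5-fold higher with doxycycline, where 0.364% of all genes were, and 0 were at least 1.5-fold lower, where 0.111% of all genes were. At the smaller size of 1.2-fold, in either direction, the count was again 1 of 9, against 10.1% of all genes. In both counts the 1 member was RPS6KA5, on whose difference the family was selected, so neither count is a result about the family. Of the other 8, 0 reached 1.2-fold, which for 8 genes is near the background of 10.1%. Without RPS6KA5 the 8 remaining members ranged from -0.18 to 0.19, with a median of -0.0096. In direction the 9 were split, with 4 higher and 5 lower, beside 50.3% and 48.8% of all genes. After centring both columns on their median, or after quantile normalization, 5 were higher and 4 lower, because RPS6KA3 changed sign.

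**Figure D1:**
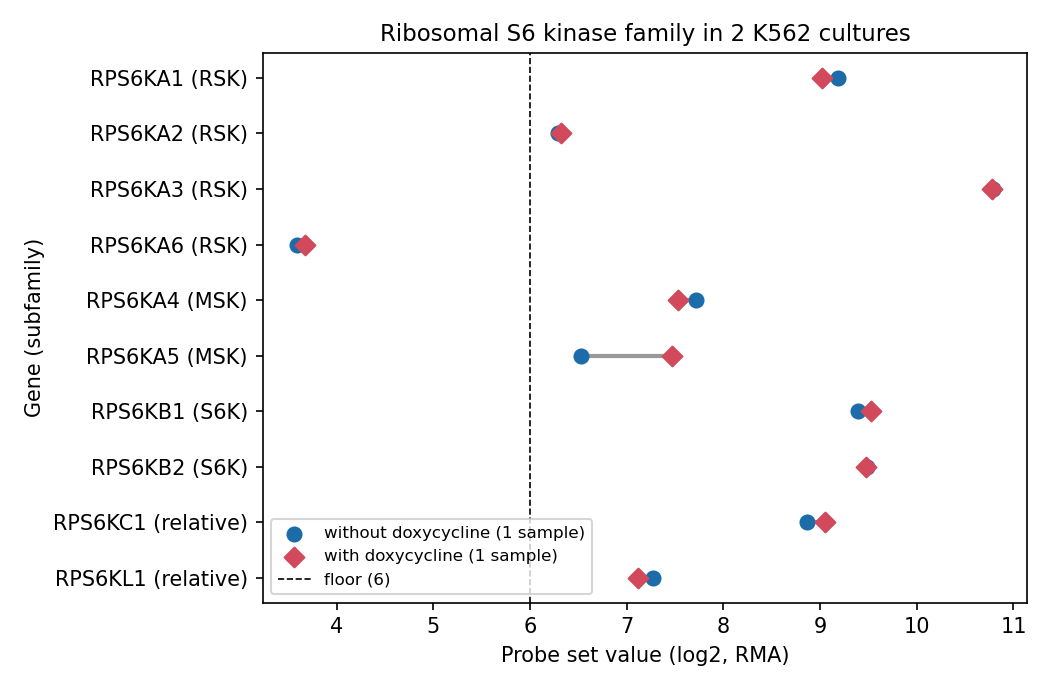
Probe set values (log2, RMA) of the 10 family members, one row per gene, in the culture without doxycycline (circles) and with it (diamonds). The pair is clearly separated for RPS6KA5 only (6.52 and 7.47), and RPS6KA6 lies left of the dashed floor at 6. Positions of different genes along the axis come from different probes and are not to be compared.

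The MSK subfamily has 2 genes, and their differences had opposite signs. RPS6KA5 on chromosome 14 (probe set 7980744), which encodes MSK1, stood at 6.52 without doxycycline and 7.47 with it. The difference was 0.95, or 1.93-fold higher, the 9th highest of 13471 genes. Both values were above the floor, so RPS6KA5 did not enter the comparison through the doxycycline sample alone. The value without doxycycline was nevertheless low. For scale, CD5 and PAX5, markers of other cell types, stood at 6.41 and 6.60 in that sample. Detection calls were not used, so whether RPS6KA5 was expressed without doxycycline is not shown. Among the 673 genes of like mean level its difference was the 2nd largest in absolute size, where the robust SD of differences (from the median absolute deviation) was 0.17. RPS6KA4 on chromosome 11 (probe set 7941039), which encodes the close paralogue MSK2, stood at 7.71 without doxycycline and 7.53 with it. Its difference of -0.18, or 1.14-fold lower, was the lowest in the family, and 165 of the 674 genes of like level differed by more in absolute size. The robust SD there was 0.15.

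The promoter sequences of the 2 MSK genes are shown because their measured differences had opposite signs. That of RPS6KA4 was small (-0.18, beside a robust SD of 0.15) and is not read as a direction. They are the 250 bases before annotated starts in RefSeq on GRCh38.p14, 5' to 3' on the gene's strand. RPS6KA5 (minus strand) had a window at chr14:91060642-91060891 for its outer start and 1 at chr14:91060125-91060374 for an inner start, and RPS6KA4 (plus strand) had 1 window at chr11:64358912-64359161. Capitals mark the core of the CREB binding site (TGACG) and the CCAAT box (CCAAT), searched on both strands. These motifs do not overlap each other in the windows shown.
RPS6KA5, outer start: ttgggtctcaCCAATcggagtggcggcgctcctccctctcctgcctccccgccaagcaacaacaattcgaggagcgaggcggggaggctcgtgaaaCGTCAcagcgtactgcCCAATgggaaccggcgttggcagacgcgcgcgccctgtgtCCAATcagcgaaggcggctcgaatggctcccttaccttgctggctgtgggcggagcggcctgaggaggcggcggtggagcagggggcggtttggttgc
RPS6KA5, inner start: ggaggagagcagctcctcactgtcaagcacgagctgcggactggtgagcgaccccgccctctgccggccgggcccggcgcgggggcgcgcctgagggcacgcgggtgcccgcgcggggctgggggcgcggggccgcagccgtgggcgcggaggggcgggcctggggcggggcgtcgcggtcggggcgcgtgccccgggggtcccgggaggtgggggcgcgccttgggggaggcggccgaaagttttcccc
RPS6KA4: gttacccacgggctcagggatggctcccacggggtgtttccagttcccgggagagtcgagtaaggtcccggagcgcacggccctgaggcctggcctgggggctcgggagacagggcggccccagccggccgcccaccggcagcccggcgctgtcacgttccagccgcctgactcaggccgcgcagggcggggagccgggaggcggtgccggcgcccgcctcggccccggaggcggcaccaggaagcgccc
The outer RPS6KA5 window held 1 CREB core, 154 bases before the start, and 3 CCAAT boxes, 240, 138 and 98 bases before it. The inner RPS6KA5 window and the RPS6KA4 window held 0 of either. All 10 members had at least 1 window, 16 in all, of which 5 held a CREB core and 6 a CCAAT box. Over all 35116 windows of this length, 21.2% held a CREB core and 32.0% a CCAAT box. The amino acid response core (TGATGNAA), to which ATF4 binds, was in 0 of the 16 windows and in 3.14% of all. A match of letters is not a measured binding site, and a missing match says only that these letters are not in this window. GC content was 66.4% in the outer RPS6KA5 window, 81.6% in the inner one and 76.8% in the RPS6KA4 window, against a median of 58.0% over all windows.

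**Figure D2:**
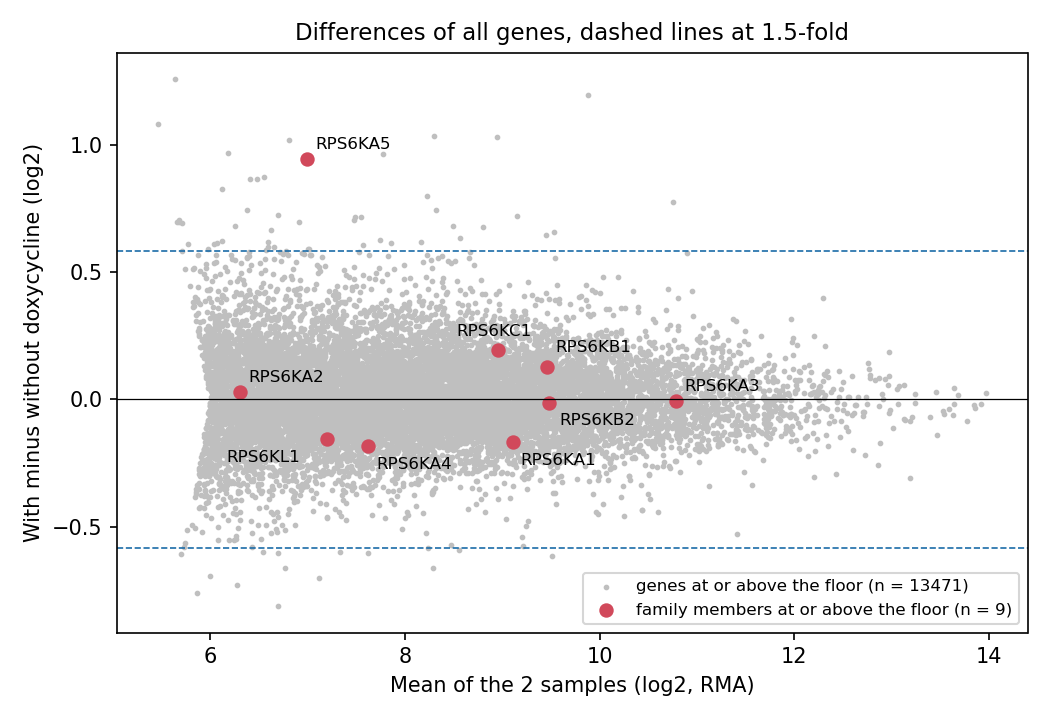
Difference with minus without doxycycline (log2) against the mean of the 2 samples (log2) for 13471 genes (grey) and the 9 family members past the floor (red), with dashed lines at 1.5-fold. RPS6KA5 lies at 0.95, above the upper line, and the other 8 lie between -0.18 and 0.19, inside the cloud of all genes.

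The RSK genes differed by less than 1.2-fold between the cultures. RPS6KA1 (RSK1, chromosome 1), an ERK-activated kinase gene, stood at 9.19 without doxycycline and 9.02 with it, a difference of -0.17, or 1.12-fold lower. RPS6KA3 (RSK2, X chromosome), the gene mutated in Coffin-Lowry syndrome, stood at 10.79 and 10.78, a difference of -0.0069. RPS6KA2 (RSK3, chromosome 6) was close to the floor, at 6.29 without doxycycline and 6.32 with it, a difference of 0.03. RPS6KA1 was thus the RSK gene furthest from 0, the 1619th lowest of 13471 genes. Of the 673 genes of like level, 154 differed by more in absolute size, and the robust SD there was 0.14. RPS6KA2 and RPS6KA3 lay within the robust SDs at their levels (0.19 and 0.13). RPS6KA6 (RSK4, X chromosome) was the only member below the floor, at 3.59 without doxycycline and 3.67 with it. Olfactory receptor genes had medians of 4.66 and 4.64 in the same samples. Detection calls were not used here, so whether RPS6KA6 was expressed is not shown, and its difference of 0.08 is not read as a direction.

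The S6K genes were close to equal in the 2 samples. RPS6KB1 (chromosome 17), which encodes S6K1, a kinase of ribosomal protein S6, stood at 9.40 without doxycycline and 9.53 with it, a difference of 0.13, or 1.09-fold higher. RPS6KB2 (chromosome 11), which encodes S6K2, stood at 9.48 and 9.47, a difference of -0.01. The robust SD among genes of their level was 0.14, so both differences lay within it. The relatives with kinase-like domains had small differences of opposite sign, beside robust SDs of 0.14 (RPS6KC1) and 0.16 (RPS6KL1) at their levels. RPS6KC1 (chromosome 1), which carries a lipid-binding PX domain and a trafficking-related MIT domain, stood at 8.86 without doxycycline and 9.05 with it. Its difference of 0.19, or 1.14-fold higher, was the largest after RPS6KA5 and lay at percentile 88.5 of all genes. RPS6KL1 (chromosome 14), a kinase-like gene, stood at 7.27 and 7.12, a difference of -0.16, or 1.11-fold lower.

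The genes beside RPS6KA5 on chromosome 14 were not higher with it. In RefSeq order, the 3 nearest genes with a probe set of their own on one side were TTC7B (-0.04), NRDE2 (-0.05) and PSMC1 (-0.0094), a proteasome subunit gene. On the other side they were CCDC88C (-0.61), PPP4R3A (-0.07), a phosphatase subunit gene, and CATSPERB (-0.17). Genes without a probe set of their own lie between them and are left out of this order. CCDC88C, which encodes the signalling scaffold DAPLE, stood at 7.93 without doxycycline and 7.32 with it, 1.52-fold lower and the 10th lowest of 13471 genes. A second CCDC88C probe set (7980773) stood at 7.66 and 7.41, a difference of -0.25. The measured gene next to RPS6KA5 on that side was therefore lower at both of its probe sets, by unequal amounts. PSMC1 also had a second probe set (7976189), at 10.78 in both samples. The probe set annotated to both DGLUCY and PIGF (7976216) was looked up after the other values had been seen, because DGLUCY starts beside RPS6KA5 on the opposite strand. It stood at 7.99 without doxycycline and 7.75 with it, a difference of -0.23, and cannot be assigned to either of its 2 genes.

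**Figure D3:**
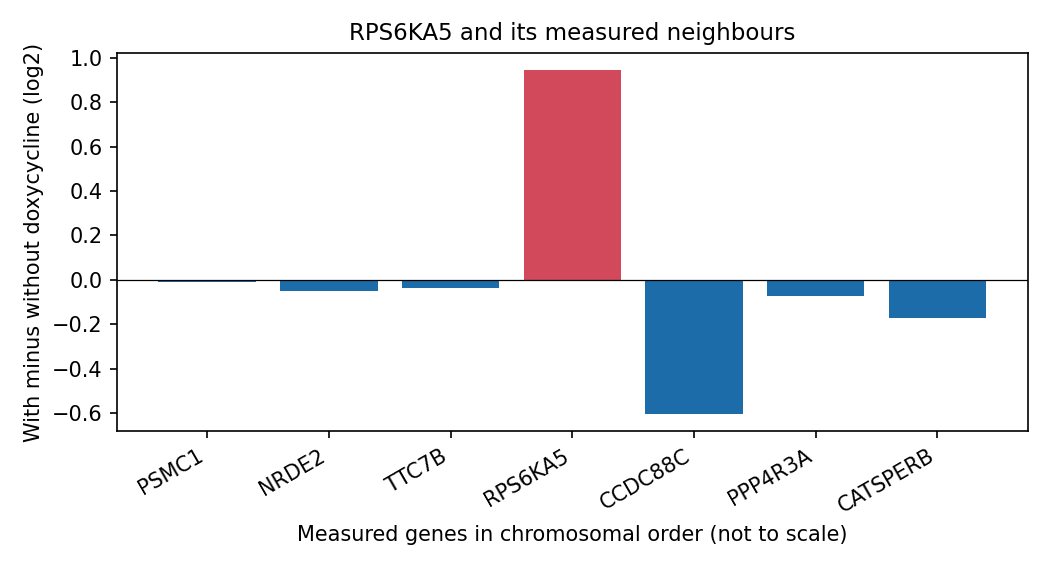
Difference with minus without doxycycline (log2) of RPS6KA5 (red) and the 3 nearest measured genes on each side of it (blue), in chromosomal order and not to scale. RPS6KA5 is at 0.95, CCDC88C at -0.61 for its brighter probe set, and the other 5 lie between -0.17 and -0.0094.

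In the order of differences over all 13471 genes, those next to RPS6KA5 were KRTAP5-5 (0.97) and ALDH1L2 (0.96) above it and MIRLET7F1 (0.87) and APOL6 (0.87) below it. Likeness here is only the gap in difference over 2 samples, at most 0.08. KRTAP5-5 and APOL6 were under the floor without doxycycline. RPS6KA5, MIRLET7F1 and ALDH1L2, a mitochondrial folate enzyme gene, were above it in both samples.

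The transcripts measured for the pathways that switch the family on were compared list by list, and their counts at 1.2-fold are to be read beside the 10.1% of all genes that reached this size. With 8 or 9 genes a list, a count of 0 is near that background. In the ERK list, 9 of 14 genes had a probe set of their own and the others were not analysed here. Listed genes without a probe set of their own were left out of the other lists too. Of the 9, 3 were higher and 6 lower, with a median of -0.10. MAPK3 (ERK1) stood at 8.84 without doxycycline and 8.71 with it, a difference of -0.12, MAP2K2 (MEK2), which phosphorylates it, differed by -0.12, and HRAS by -0.13. SHOC2, a scaffold that helps activate RAF kinases, went the other way, at 8.95 and 9.18, a difference of 0.23. In this list 0 of 9 reached 1.2-fold, beside 10.1% of all genes.

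In the p38 list, of the cascade above MSK, 9 of 11 genes had a probe set of their own. MAPK14 (p38 alpha) and TAB1 did not, so the list does not cover the whole cascade. MAP2K6 was under the floor, at 4.65 without doxycycline and 4.81 with it. The measured rest was evenly divided. Past the floor were 8 members, of which 4 were higher and 4 lower, with a median of 0.02, and 0 reached 1.2-fold. MAPK11 (p38 beta) differed by 0.10 and MAPK12 (p38 gamma) by -0.17. Of the kinases above them, MAP2K4 differed by 0.11 and MAP2K3 by -0.16. After centring, 5 of the 8 were higher.

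For S6K, the list of PDPK1 and mTORC1 genes had 8 members past the floor, 3 higher and 5 lower, with a median of -0.02 and 0 at 1.2-fold. MLST8, a subunit of the mTOR complexes, differed by -0.18, the kinase gene MTOR by -0.10, the mTORC1 inhibitor gene AKT1S1 by -0.06 and RPTOR, the mTORC1 scaffold, by -0.04. The count of higher members ran from 1 to 4 under the other scalings, because PDPK1, TSC1 and TSC2 lay close to 0.

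Genes for substrates of the kinases were compared next, as transcripts only, since phosphorylation was not measured. Of 9 listed MSK substrate genes, 7 had a probe set of their own. Of the 7, 5 were higher and 2 lower, with a median of 0.07, and 1 reached 1.2-fold, beside 10.1% of all genes. That gene was ETV1, an ETS family transcription factor, at 7.85 without doxycycline and 8.21 with it, a difference of 0.36. H3-3B, which encodes a variant of histone H3, differed by 0.18, STAT3 by 0.13 and the corepressor gene TRIM28 by -0.11.

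Of 11 RSK substrate genes, 4 were higher and 7 lower (5 and 6 after centring), with a median of -0.03 and 0 at 1.2-fold (10.1% of all genes). DAPK1, a death-associated kinase gene, differed by 0.17, SRF, the serum response factor gene, by -0.18 and the RAS exchange factor gene SOS1 by -0.10. Of 10 S6K substrate genes, 4 were higher and 6 lower (5 and 5 after centring or quantile normalization), with a median of -0.02, and 2 reached 1.2-fold, beside 10.1% of all genes. These were PDCD4, an inhibitor of translation initiation, at 9.06 without doxycycline and 9.40 with it (0.34), and RICTOR, the mTORC2 scaffold, at 10.04 and 10.30 (0.27). CAD, a pyrimidine synthesis enzyme gene, differed by -0.18, and IRS1, an insulin receptor adaptor gene close to the floor, by -0.25 (6.07 and 5.82). EIF4B, a translation factor gene on both lists, differed by 0.12 at its brightest probe set (7955646), by 0.08 at another (8135268) and by -0.44 at the remaining one (7963575), so its direction was not settled.

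Genes known to be induced through CREB and MSK kinases ranged from -0.15 to 0.18. Of 13 listed genes, 9 were past the floor, 6 higher and 3 lower, with a median of 0.02 (0.00 over all genes) and 0 at 1.2-fold, near the 10.1% of all genes. FOS stood at 8.35 without doxycycline and 8.20 with it, a difference of -0.15, and EGR1, another immediate early gene, differed by -0.10. CREM, a CREB family member, stood at 7.39 and 7.57, a difference of 0.18, and the stress-induced factor ATF3 differed by 0.10. NR4A3, IL10 and IL1RN were under the floor in both samples.

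Among related kinases, RPS6KA5 had the largest positive difference. This is the value it was selected on, so its place among them is a description and not a test. The other kinases activated by MAP kinases were all lower by small amounts, 5 of 5, where 48.8% of all genes were lower. Their median was -0.10, and 0 reached 1.2-fold (10.1% of all genes). MAPKAPK2, a p38 effector, differed by -0.16, MKNK2 by -0.11, MKNK1 by -0.10 and MAPKAPK5 by -0.05. The robust SD of differences at their levels was 0.13 to 0.14. The other AGC kinases, the wider group to which the N-terminal kinase domain of RSK and MSK belongs, had 39 members past the floor. Of these 22 were higher and 17 lower (20 and 19 after a trend with level was removed), with a median of 0.0084, and 3 reached 1.2-fold, a share near the 10.1% of all genes. PRKCH, a protein kinase C gene, was the highest of them at 0.38 (7.01 without doxycycline and 7.40 with it), followed by SGK1, a serum and stress-induced kinase gene, at 0.34. ROCK1 differed by 0.21, and PRKX was the lowest at -0.28. All 39 lay below RPS6KA5, and 37 of the 39 lay above RPS6KA4.

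**Figure D4:**
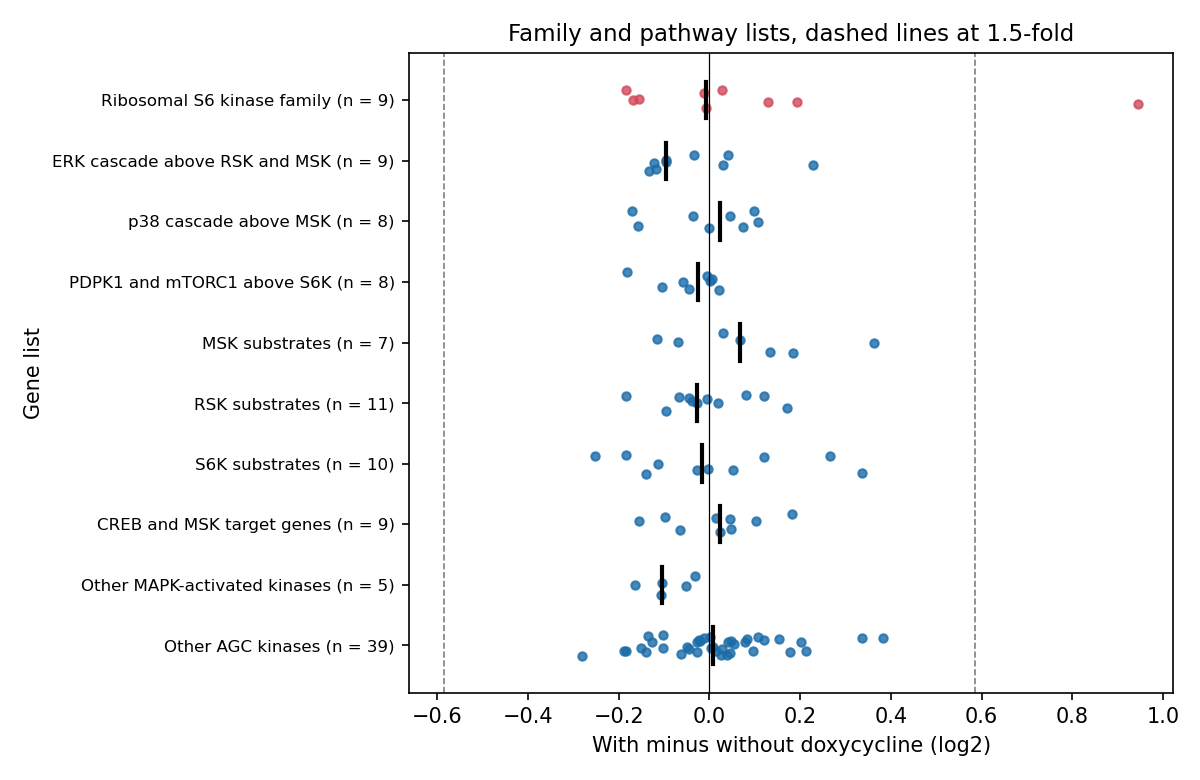
Difference with minus without doxycycline (log2) of each gene past the floor in the kinase family (red, 9 genes) and in 9 pathway lists (blue), with black bars at the medians and dashed lines at 1.5-fold. RPS6KA5 at 0.95 is the only point beyond the dashed lines, and the medians lie between -0.10 and 0.07.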

How the data were processed

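Total RNA of the 2 cultures (0.3 µg each, integrity number 10) was column-purified, biotin-labelled as sense-strand whole-transcript target and put on 1 Affymetrix array each, per the labels' protocols. Per the submitters' processing notes, the authors used RMA in Affymetrix Expression Console 1.1.1 for the deposited log2 values. RMA corrects background, quantile-normalizes probes and summarises probe sets, so a global shift would be lost. The log base is not stated and was inferred from RMA and the range of values (1.61 to 14.6). The series' design text names an HG-U133 Plus array, but the annotation and probe set numbers belong to an Affymetrix Gene ST array, as used here. No read or molecule counts exist, and the number of arrays limits the precision.

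Of 33297 probe sets, 19460 had 1 symbol, 1754 several and 12083 none here. Symbols were updated through Entrez IDs to RefSeq on GRCh38.p14 (19429 matched), and a gene took its brightest probe set. Members and lists were chosen with earlier results of these data known. Named were all members, BMI1, up to 4 genes per pathway list with the largest absolute difference, all markers, 3 measured neighbours on each side of RPS6KA5 and 2 genes on each side of it in rank. Genes and probe sets outside this rule (DGLUCY and PIGF, ALAS2, genes at or near 0 or under the floor) were named after their values were seen. MAPK14 and TAB1, which had no probe set of their own, were also named outside it. Robust SDs are from 20 bins of mean level. Steps were tested on simulated data. Python 3.11.15, numpy 2.4.6, pandas 2.3.3, statsmodels 0.14.6 and matplotlib 3.10.9 were used.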

Additional observations from a re-analysis of the deposited data

How the results depend on the processing

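The 8 alternatives were no floor, floors of 5 and 7, the mean of probe sets, centring, quantile normalization, removal of a loess trend with level, and counting probe sets with several symbols. RPS6KA5 has 1 probe set, so its value can move only with the 3 alternatives that rescale the values, under which it was 0.945 to 0.955. This is the value the family was selected on and is no sign of stability. It ranked between 6th and 11th from the top, the 6th place being at the floor of 7, which it passed only through the doxycycline sample (7.47 against 6.52). Of the other members, RPS6KA3 was the only one to change sign, at 0.0030 after centring and 0.0034 after quantile normalization. As the middle member, RPS6KA3 set the family median (-0.0069) in these cases too, and the median was 0.01 with no floor and -0.0096 without RPS6KA5, an alternative chosen after seeing the data. Counts over all genes followed the floor. Genes at least 1.5-fold higher numbered 77 with no floor and 26 with a floor of 7, against 49. Genes at least 1.5-fold lower numbered 66 with no floor, 32 with a floor of 5 and 9 with a floor of 7, against 15. Other AGC kinases at least 1.2-fold different numbered 7 with no floor and 6 with a floor of 5, against 3. In each of these cases the number of genes compared changed with the floor. An alternative difference was counted as moved when it shifted by more than 0.13, the pooled SD between probe sets of 1 gene over 554 genes, scaled by list size for medians. No paired analysis was possible because each group held 1 sample. With 1 array per group, neither replicate error nor the share of the RPS6KA5 difference that is particular to these 2 cultures can be estimated.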
